A study of Mus musculus with 23 samples.

Results

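The transcripts of 10 genes known chiefly from the supporting cells of bone and bone marrow were followed through single-cell libraries of mouse marrow. The genes were the fibrillar collagen genes Col1a1, Col1a2 and Col3a1, the collagen-binding proteoglycan Dcn, the bone matrix genes Ibsp, Bglap and Spp1, the niche factors Cxcl12 and Igfbp5, and the receptor gene Lepr. They were chosen by symbol, and all 10 were found among the 23536 gene rows of the deposited table. The study flushed mouse marrow gently, trimmed clumps of attached cells with needles into single cells, and measured each cell with CEL-seq, a method that counts tagged molecules at the 3′ end of polyadenylated RNA. Micro-dissected cells made up 18 libraries, each with 96 barcoded wells, and hematopoietic stem cells sorted as Lineage- Kit+ Sca1+ CD150+ CD48- (sorted HSC) made up the other libraries, of which 4 were analysed here (replicates 1, 3, 4 and 5). Both groups came from mouse marrow with no treatment named in the labels, and the labels give neither strain nor age. Dissected replicate 18 has no columns in the table of all cells, so its values come from its own file. The labels name no animals, so each p-value below measures only the spread between libraries.

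Fibroblasts, osteoblasts and reticular cells build the scaffold of the marrow. Col1a1 and Col1a2 encode the chains of type I collagen, the main protein of bone and tendon, and Col3a1 encodes type III collagen. Perivascular reticular cells that carry the leptin receptor (Lepr) secrete the chemokine Cxcl12, which holds blood stem cells in the marrow through the receptor Cxcr4. Osteoblasts secrete bone sialoprotein (Ibsp), osteocalcin (Bglap) and osteopontin (Spp1), and osteopontin is also made by macrophages and osteoclasts.

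Of the 10 genes, 8 had a promoter entry in the RefSeq table (GRCm38.p6), which spans 250 bases before and 50 bases after the start. The promoters of Col1a2, Cxcl12, Ibsp and Bglap are shown because these genes stand for the matrix, niche and bone groups described below. They lie at chr6:4505368-4505667 on the plus strand, chr6:117168285-117168584 on the plus strand, chr5:104299037-104299336 on the plus strand and chr3:88384417-88384716 on the minus strand. Capitals mark matches on either strand to the CCAAT box (CCAAT), the TATA box (TATAAA), the GC box (GGGCGG) and the Runt motif (AACCACA); matches that overlap each other run on as 1 stretch of capitals.
Col1a2: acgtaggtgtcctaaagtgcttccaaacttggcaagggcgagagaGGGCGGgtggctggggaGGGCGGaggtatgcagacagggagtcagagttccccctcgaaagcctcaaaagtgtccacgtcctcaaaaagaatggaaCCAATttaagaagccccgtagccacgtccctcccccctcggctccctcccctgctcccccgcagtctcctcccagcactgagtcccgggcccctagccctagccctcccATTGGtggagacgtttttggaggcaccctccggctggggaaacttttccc
Cxcl12: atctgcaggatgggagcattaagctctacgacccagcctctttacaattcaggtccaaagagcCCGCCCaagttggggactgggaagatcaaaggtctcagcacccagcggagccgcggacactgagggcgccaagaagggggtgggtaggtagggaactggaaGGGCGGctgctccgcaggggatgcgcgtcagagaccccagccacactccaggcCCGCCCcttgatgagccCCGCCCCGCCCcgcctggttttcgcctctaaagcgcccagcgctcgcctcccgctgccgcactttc
Ibsp: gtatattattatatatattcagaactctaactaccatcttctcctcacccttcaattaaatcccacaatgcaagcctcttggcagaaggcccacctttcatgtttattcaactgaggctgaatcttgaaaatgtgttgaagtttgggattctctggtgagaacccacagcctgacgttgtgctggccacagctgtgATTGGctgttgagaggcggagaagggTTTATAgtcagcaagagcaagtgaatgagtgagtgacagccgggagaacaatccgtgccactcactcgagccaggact
Bglap: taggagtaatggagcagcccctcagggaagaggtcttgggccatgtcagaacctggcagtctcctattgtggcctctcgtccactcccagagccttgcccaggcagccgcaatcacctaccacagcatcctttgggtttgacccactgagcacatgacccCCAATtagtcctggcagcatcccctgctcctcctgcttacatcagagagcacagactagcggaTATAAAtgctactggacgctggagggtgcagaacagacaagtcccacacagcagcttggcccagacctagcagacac
The Ibsp and Bglap promoters each held a TATA box, which 13.6% of the 32851 promoters of that length hold, and a CCAAT box, which 37.4% hold. The Cxcl12 promoter held GC boxes at 5 positions, and 35.7% of all promoters hold at least 1. The Col1a2 promoter held CCAAT and GC boxes and no match to the TATA box letters. The Runt motif, present in 5.27% of all promoters, was found among the members in an Spp1 entry only.

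Cells with at least 1000 estimated transcripts were kept. The table held 707 such cells in dissected replicates 1 to 17 and 245 in the sorted HSC, with 8761 to 284163 tags per dissected library and 3097 to 236312 per sorted HSC library; the lowest sorted library, replicate 1, held 2 kept cells. The file of dissected replicate 18 held 83 kept cells and 271645 tags. Kept cells had a median of 2272 transcripts in dissected replicates 1 to 17 and 1926 in the sorted HSC. The files of dissected replicates 1 to 17 held 63 further kept wells with no matching column in the table, and 37 of them held a tag of a member. Of the tags in these files, those wells held 69.2% for Ibsp, 49.5% for Col1a2, 47.1% for Spp1 and 46.7% for Igfbp5. The share was 38.9% for Col3a1, 38.8% for Cxcl12, 27.8% for Dcn, 22.6% for Col1a1, 19.4% for Lepr and 0% for Bglap. The folds, bounds and adjusted p below come from the table and leave those wells out. Of 12 stem and multipotent progenitor markers tested, 11 were lower in dissected cells than in sorted HSC (edgeR, adjusted p under 0.05). The list holds genes of the sort itself: Kit, Ly6a (Sca1) and Slamf1 (CD150). Slamf1 was the gene that did not pass, with a log2 fold of 0.25 ± 1.19 (SE; adjusted p = 0.908, edgeR). All libraries use the same 96 cell barcodes, so a cell is defined by its library and well. Dissected replicate 18 stood apart from the other dissected libraries: a list of 10 skeletal muscle genes reached 35598 CPM there (CPM, tags of a gene or list per 1000000 tags in kept cells), against 0 to 4793 CPM in replicates 1 to 17, with the highest of these in replicate 11.

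Dissected cells held transcripts of all 10 genes, and sorted HSC held those of Lepr and Col1a2 only. Cxcl12, Igfbp5, Spp1, Col1a1, Dcn and Ibsp rose in dissected replicates 1 to 17 over sorted HSC, with Cxcl12 and Igfbp5 first by fold. Lepr stood at 93.2 CPM over all dissected cells of the table and 91.7 CPM over all sorted HSC. Of the 9 members with enough counts to be tested, 6 were called higher and none lower (edgeR quasi-likelihood test, adjusted p under 0.05). DESeq2 gave an adjusted p for 8 members and called 2 of them, Cxcl12 and Igfbp5. Of all 10915 genes tested with edgeR, 24.9% were called, 12.1% higher and 12.8% lower. Members absent from sorted HSC reached the test only through their counts in dissected cells, so that count is a description. The 2 groups also differ in the sort and in the sequencer, which the labels give as NextSeq500 for dissected libraries and as HiSeq2500 or NextSeq500 for sorted HSC, and these cannot be told apart from the cells themselves.

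**Figure D1:**
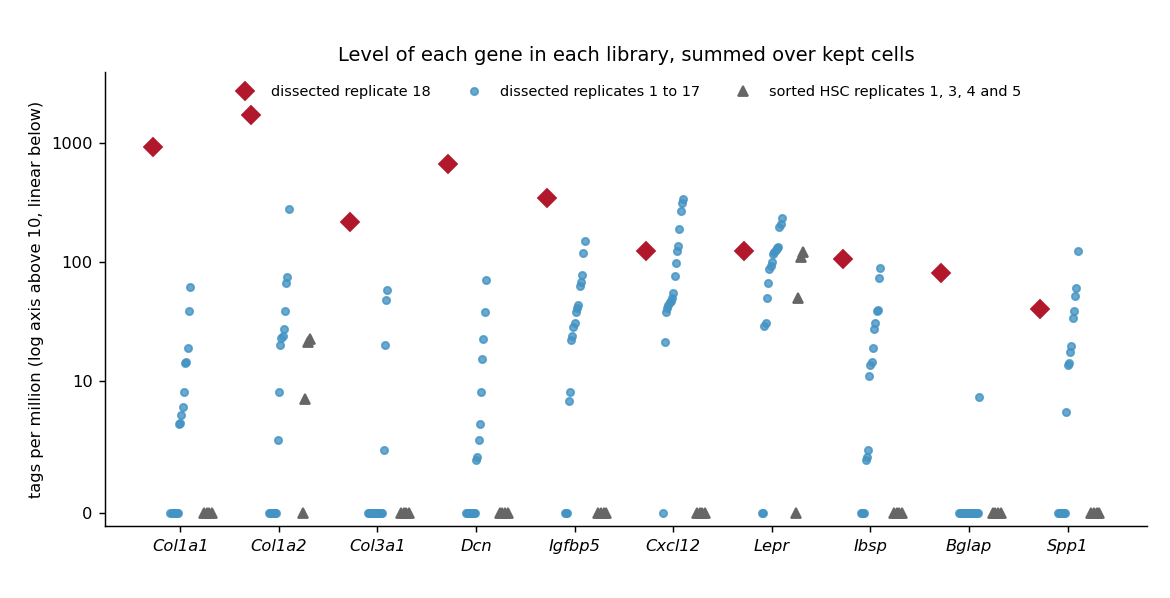
Level of each gene in each library, in CPM, on an axis that is logarithmic above 10 and linear below. Diamonds are dissected replicate 18, circles are dissected replicates 1 to 17 (both from the per-library files), and triangles are sorted HSC replicates (from the table); Col1a2 reached 1719 in replicate 18, against at most 282 in the other dissected libraries, and 8 of the 10 genes sat at 0 in all 4 sorted HSC libraries.

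Among the matrix genes, Col1a1, which encodes the α1 chain of type I collagen (chr11:94936224-94953042), had 26 tags in 23 of the 707 dissected cells and 0 in the 245 sorted HSC. Its level was 0 CPM in the lowest, 5.83 CPM in the median and 37.4 CPM in the highest of the 17 dissected libraries. The highest library was replicate 11, and 11 of the 17 had a tag. Col1a1 was at least 2.02-fold higher in dissected cells, against a floor of 3 tags over the sorted HSC. This bound, like those given below for other members, takes the dissected level as measured. It leaves out the counting error of that level and its spread between libraries. The fitted log2 fold was 3.71 ± 1.13 (SE; adjusted p = 0.00976, edgeR), a value that depends on the prior count because the other group is at 0. The call was lost without sorted HSC replicate 3 (adjusted p = 0.0703) and without replicate 5 (adjusted p = 0.0562).

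Dcn encodes decorin, which binds collagen fibrils (chr10:97479609-97518143). It had 27 tags in 17 dissected cells and 0 tags in sorted HSC, and its dissected libraries spanned 0 to 41.6 CPM with a median of 3.66 CPM. It was at least 2.09-fold higher in dissected cells, with a fitted log2 fold of 3.70 ± 1.17 (SE; adjusted p = 0.0133, edgeR). Without sorted HSC replicate 3 or 5 the adjusted p was 0.0815 or 0.0685.

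Col1a2, which encodes the α2 chain of type I collagen (chr6:4504814-4541544), was the matrix gene found in both groups. It had 64 tags in 42 dissected cells and 10 tags in 8 sorted HSC. The dissected libraries spanned 0 to 129 CPM with a median of 5.04 CPM, and the 4 sorted HSC libraries had 0, 21.2, 8.62 and 22.4 CPM. The groups overlapped, and the fitted difference was a log2 fold of 0.79 ± 0.93 (SE; adjusted p = 0.576, edgeR). Without dissected replicate 11 it was 0.13, and with a minimum of 2000 transcripts per cell it was -0.19. Col3a1, the gene of type III collagen (chr1:45311538-45349706), had 13 tags in 7 dissected cells and 0 tags in sorted HSC, with an adjusted p of 0.0717 (edgeR). Leaving out dissected replicate 10 or 17 brought it to 0.0474 or 0.0470, so its call turned on single libraries. The skeletal muscle list moved with these genes: its 10 genes had a median log2 fold of 6.22, none passed (edgeR, adjusted p), and 9 had an unadjusted p under 0.05. The part of muscle RNA in the matrix counts was not tested.

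**Figure D2:**
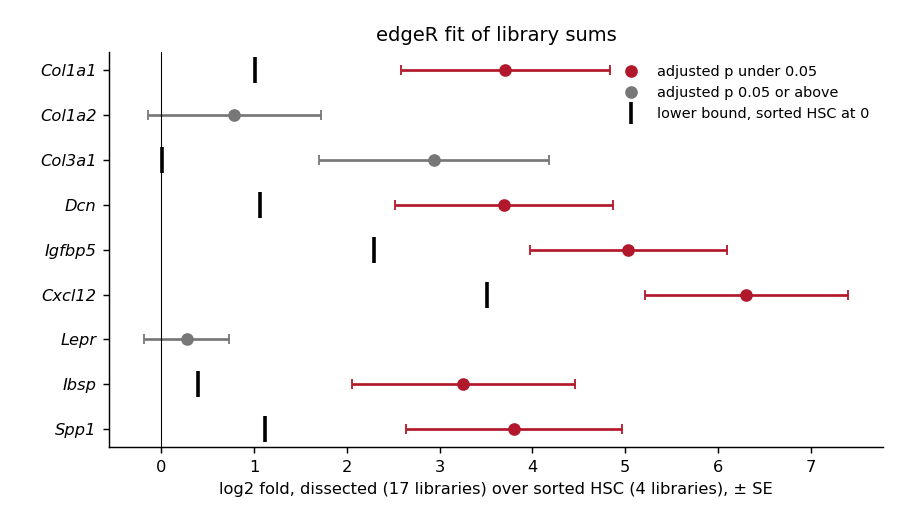
Fitted log2 fold of dissected replicates 1 to 17 over 4 sorted HSC libraries, with its standard error, for the 9 members tested. Red points passed an adjusted p of 0.05. Black ticks give the lower bound of the fold for genes at 0 in sorted HSC, with the dissected level taken as measured. Cxcl12 and Igfbp5 lay farthest to the right and Lepr and Col1a2 nearest to 0.

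Dissected replicate 18 held far more matrix transcripts than any other dissected library. In the per-library files, Col1a2 reached 1719 CPM there, 6.10 times the highest of replicates 1 to 17 (282 CPM in replicate 11). Col1a1 reached 928 CPM, 15.1 times the highest other library, and Dcn 666 CPM, 9.46 times. Col3a1 reached 217 CPM, 3.70 times the 58.8 CPM of replicate 7. Bglap at 81 CPM was 9.20 times above, and Igfbp5 at 346 CPM was 2.31 times above replicate 11. In all, 6 of the 10 members were at least 2-fold above the highest other library, against 2.54% of the 10756 genes with at least 10 tags. Being a single library, it has no replicate and no test was made. The 10 tags were counted with replicate 18 included, so a gene could pass that filter through replicate 18 alone. These counts are therefore descriptions.

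The other 4 members did not reach that 2-fold line. Ibsp was still highest in replicate 18, with 107 CPM there, against 89.4 CPM in replicate 3 and a median of 13.6 CPM over replicates 1 to 17. It was found in 21.7% of the cells of replicate 18. In replicates 1 to 17 it was found in 3.74% of cells of the files and 1.56% of cells of the table. After thinning to 1000 tags it was found in 11.4% of cells of replicate 18, against 0.734% of the table's cells of replicates 1 to 17. The table lacks wells that held 69.2% of the Ibsp tags in the files of replicates 1 to 17, and thinning was not run on those files. Cxcl12 had 125 CPM, against up to 343 CPM in replicate 3, and Lepr had 125 CPM, against up to 235 CPM in replicate 7. Spp1 had 40.5 CPM, against up to 125 CPM in replicate 8, where this rested on 2 tags in 12 kept cells.

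Other genes of the bone-forming list were also high in replicate 18. Of its 6 genes other than members with at least 10 tags, 5 were at least 2-fold above the highest other library: Sparc (osteonectin, 526 against at most 94.4 CPM), Col11a1 (221 against 22 CPM), Alpl (alkaline phosphatase of osteoblasts, 81 against 8.80 CPM), Bglap2 (55.2 against 0 CPM) and Alpk3 (69.9 against 4.0 CPM). Alpk3, though on that list, is known as a kinase of heart and skeletal muscle. The minimum of 10 tags again included replicate 18, where all 15 tags of Bglap2 lay, so these list counts are descriptions. The sixth, Runx2, the transcription factor of the osteoblast line, had 77.3 CPM, against at most 152 CPM. Of 16 fibrillar matrix genes, 5 passed the same 2-fold line, namely Col5a2, Col6a2, Fbn1, Mgp and Mmp13. They had 13, 10, 14, 32 and 16 tags over all dissected libraries. The 3 genes of that list with most tags did not pass. Timp2 had 239 CPM, against at most 144 CPM elsewhere, Timp3 136 against 273 CPM and Col5a1 77.3 against 270 CPM. Of 11 genes of mesenchymal stroma, none did; Kitl, Vcam1 and Gas6 had 25.8, 214 and 40.5 CPM in replicate 18, against up to 47.2, 612 and 135 CPM elsewhere. All 10 skeletal muscle genes passed it, led by Tnnc2 at 4506 against at most 361 CPM and Acta1 at 6707 against at most 845 CPM. In the same library the chondrocyte list had 47.9 CPM, within the 0 to 96.9 CPM of the others.

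Within replicate 18 the matrix tags were found in many cells, at unequal levels. Col1a2 was found in 74 of 83 kept cells (89.2%, exact 95% binomial interval 80.4 to 94.9%), Col1a1 in 61 (73.5%), Dcn in 58 (69.9%), Igfbp5 in 47 (56.6%) and Col3a1 in 36 (43.4%). In dissected replicates 1 to 17 of the table, Col1a2 was found in 5.94% of cells and Col1a1 in 3.25%. In the per-library files of the same replicates the shares were 7.33% and 3.59% of 696 cells. After thinning each cell to 1000 tags, Col1a2 was found in 67.1% of 79 cells of replicate 18, taken from its file. It was found in 2.94% of 681 cells of the other dissected libraries and 0.816% of 245 sorted HSC, both taken from the table. The table lacks wells that held 49.5% of the Col1a2 tags in the files of replicates 1 to 17. Cells under the transcript minimum carried matrix tags too: the 13 such wells of replicate 18 held 10 Col1a2 tags among 6878 tags, or 1454 CPM, and 7 Col1a1 tags, or 1018 CPM. The skeletal muscle list stood at 23117 CPM in those wells, and every one of the 83 kept cells held a tag of it.

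Cells with erythroblast and cells with neutrophil transcripts both carried matrix tags. In replicate 18, 43 cells had more tags of the erythroblast list than of any other blood list, and 29 had most tags of the neutrophil line list; these are cuts on marker counts, not cell types. Col1a2 stood at 2143 CPM in the 43 cells and at 1447 CPM in the 29 cells. Col1a1 made up 35% of Col1a1 and Col1a2 tags in the 43 cells (interval 30.4 to 39.7%), 30.9% in the 29 cells (24.3 to 38.2%) and 42% in the 11 remaining cells (32.7 to 51.7%). Dcn made up 26.7, 30.6 and 27.8% of Dcn and Col1a2 tags in those sets, again with overlapping intervals. The 10 cells with the highest share of member tags held Col1a1 at 34.9% of Col1a1 and Col1a2 tags, and the other 73 cells at 35.1%. Col1a2 stood at 5940 CPM in these 10 cells, which were chosen by member tags, against 1235 CPM in the other 73. The skeletal muscle list stood at 35029 CPM in the 10 cells and 35663 CPM in the 73. Intervals cover counting error only. Whether these tags came from the cell itself or from free RNA in the well was not tested.

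**Figure D3:**
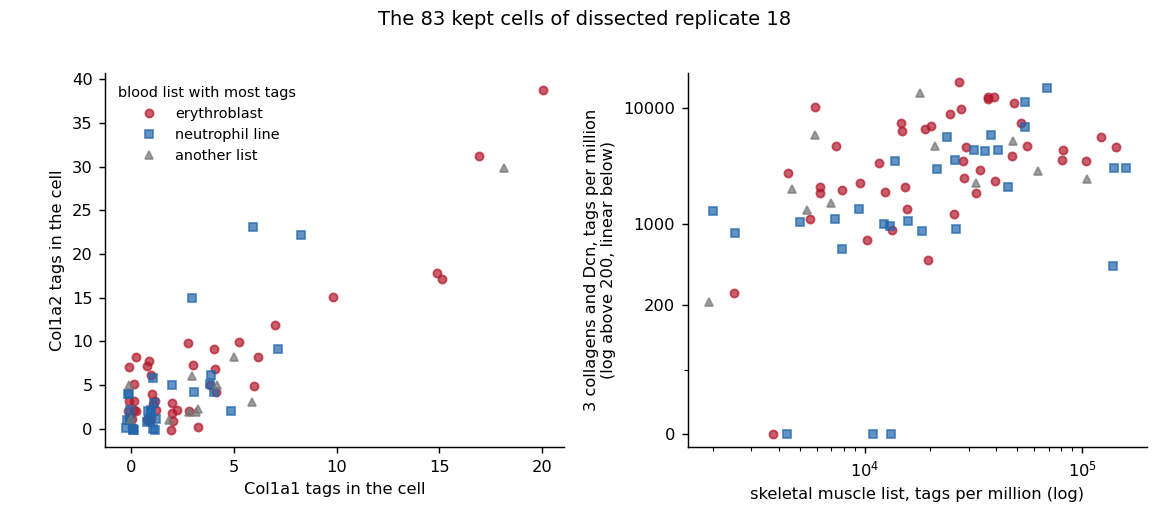
The 83 kept cells of dissected replicate 18, marked by the blood marker list with most tags. Left, Col1a1 against Col1a2 tags per cell (points shifted by under 1 tag to separate them); right, summed Col1a1, Col1a2, Col3a1 and Dcn level against the level of 10 skeletal muscle genes, both in CPM (the muscle axis logarithmic, the other logarithmic above 200 and linear below); erythroblast-led and neutrophil-led cells are mixed in both plots, and all 83 cells held muscle tags.

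Stromal transcripts were a small part of every kept cell of replicate 18. The members other than Lepr, with the lists of mesenchymal stroma, bone-forming cells and fibrillar matrix, made up 0.626% of a cell's tags at the median and 3.39% at most, against a median of 12.4% for the blood lists with β-globin. In none of the 83 cells did the stromal tags outnumber the blood tags. The skeletal muscle list was in neither sum. A cell led by the neutrophil line list, with 33 tags of it, held 1681 skeletal muscle tags among 11969 tags. The cell with most member tags held 39 Col1a2, 20 Col1a1, 13 Dcn and 9 Col3a1 tags among 4900 tags, and its leading gene was β-globin (listed as Beta-s). The next held 30 Col1a2 and 18 Col1a1 tags and led with the immunoglobulin J chain gene Igj. In dissected replicates 1 to 17 a single kept cell had more stromal than blood tags, with 1 tag against 0.

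Bglap was rare outside replicate 18. It encodes osteocalcin (chr3:88383501-88384464) and had 2 tags in 2 of 707 dissected cells, both in replicate 11, and 0 tags in sorted HSC, which allows up to 5.61 CPM over that group. In replicate 18 it had 22 tags in 14 cells. Its copy Bglap2 had 15 tags in 10 cells of replicate 18 and 0 tags in the 707 dissected cells of the table. The Bglap and Bglap2 transcripts are 99.1% identical over 436 aligned bases and identical over the 149 aligned bases at the 3′ end that CEL-seq reads, so how tags were split between them is uncertain. Bglap3, 96.6% identical to Bglap, had 0 tags in the kept cells of the table.

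Ibsp encodes bone sialoprotein (chr5:104299171-104311469). It had 17 tags in 11 dissected cells and 0 tags in sorted HSC. Its pooled dissected level was 1.32 times the floor of 3 tags over the sorted HSC. The fitted log2 fold was 3.26 ± 1.20 (SE; adjusted p = 0.0372, edgeR). The call was lost without any 1 of the 4 sorted HSC libraries, with adjusted p = 0.0507 without replicate 1, 0.143 without replicate 3, 0.0756 without replicate 4 and 0.127 without replicate 5. Without dissected replicate 14, which held 9 of the 17 tags, Ibsp had too few counts to be tested. The table also shows only part of it: the per-library files of replicates 1 to 17 held 52 Ibsp tags, of which 69.2% lay in wells with no column in the table.

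Spp1 encodes osteopontin (chr5:104435118-104441050). It had 28 tags in 17 dissected cells and 0 tags in sorted HSC, with dissected libraries from 0 to 97.8 CPM and a median of 7.04 CPM. It was at least 2.17-fold higher in dissected cells, with a fitted log2 fold of 3.80 ± 1.16 (SE; adjusted p = 0.0103, edgeR). Without sorted HSC replicate 3 or 5 the adjusted p was 0.0705 or 0.0572. Among the 4 cells with most Spp1 tags in the per-library files of replicates 1 to 17, 3 held macrophage list tags (358, 174 and 302), with 13, 8 and 5 Spp1 tags, in replicates 9, 17 and 16; the other, with 6, is the replicate 3 cell with most Cxcl12 tags, described below. The replicate 17 cell held more neutrophil line tags (369) and monocyte and dendritic tags (267) than macrophage tags, led with β-globin, and had no C1qa tag. The 3 held 30, 21 and 13 tags of the complement gene C1qb, and 45, 82 and 6 tags of Gpnmb, a glycoprotein of phagocytes. They also held 17, 10 and 5 tags of Atp6v0d2, a proton pump subunit of macrophages and osteoclasts, and no tag of Col1a1, Col1a2, Col3a1 or Dcn. These cells were chosen by their Spp1 tags. Over the 17 cells of replicates 1 to 17 led by the macrophage list, Spp1 stood at 289 CPM, against 7.84 CPM in the 238 led by the erythroblast list and 20.5 CPM in the 338 led by the neutrophil line list, but 13 of the 18 tags behind the first value came from 1 cell.

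Among the niche factors, Cxcl12 (chr6:117168535-117181367) was the member with the largest difference from sorted HSC. It had 147 tags in 73 of 707 dissected cells (10.3%) and 0 tags in the 245 sorted HSC, a count that allows up to 1.22% of cells with a tag (3 of 245) and sets no limit on cells that express the gene below detection. The level was 0 CPM in the lowest, 43.8 CPM in the median and 245 CPM in the highest dissected library, replicate 7, and 15 of 17 libraries had a tag. Cxcl12 was at least 11.4-fold higher in dissected cells, with a fitted log2 fold of 6.31 ± 1.09 (SE; adjusted p = 1.3e-05, edgeR). Its call held in each of the 21 fits that left out 1 library, with adjusted p from 8.79e-07 to 5.95e-04.

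Igfbp5 encodes an insulin-like growth factor binding protein secreted by osteoblasts and reticular cells (chr1:72857932-72874884). It had 63 tags in 47 dissected cells and 0 tags in sorted HSC. The dissected libraries spanned 0 to 87.3 CPM with a median of 23.3 CPM, and 14 of 17 had a tag. It was at least 4.89-fold higher in dissected cells, with a fitted log2 fold of 5.03 ± 1.06 (SE; adjusted p = 1.44e-04, edgeR). The call held in the same 21 fits, with adjusted p from 6.62e-05 to 0.00481.

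Cxcl12 and Igfbp5 tags were thinly spread, with a few cells far above the rest. In the per-library files of replicates 1 to 17, Cxcl12 was found in 85 of 696 kept cells, 51 of them with exactly 1 tag, and 3 cells held 34.9% of its 209 tags. The 3 cells with most Cxcl12, Igfbp5 and Ibsp tags together, by which they were chosen, are described here. The first, in replicate 3, held 34 Cxcl12, 10 Ibsp, 9 Igfbp5 and 6 Spp1 tags among 9905. The second, in replicate 11, held 19 Cxcl12, 23 Igfbp5, 7 Ibsp and 25 Col1a2 tags among 14092. The third, in replicate 14, held 20 Cxcl12, 4 Igfbp5 and 5 Ibsp tags among 18296, with 5 tags of Kitl, the stem cell factor gene.

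All 3 carried platelet-line transcripts. The megakaryocyte list had 210, 446 and 1168 tags in them, with Pf4 (platelet factor 4) at 71, 80 and 188 tags and Itga2b (the platelet integrin αIIb) at 50, 76 and 119 tags. The first also held 373 tags of the neutrophil line list, more than of any other list. Of these, only the replicate 14 cell has a column in the table, and no other cell of its clump was kept. A further cell of replicate 14, with 4 Cxcl12 and 2 Ibsp tags, held 26 tags of Fabp4 (the adipocyte and endothelial fatty acid binding protein) and 12 of Sparc. No doublet caller was run, and whether such wells held more than 1 cell was not tested.

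**Figure D4:**
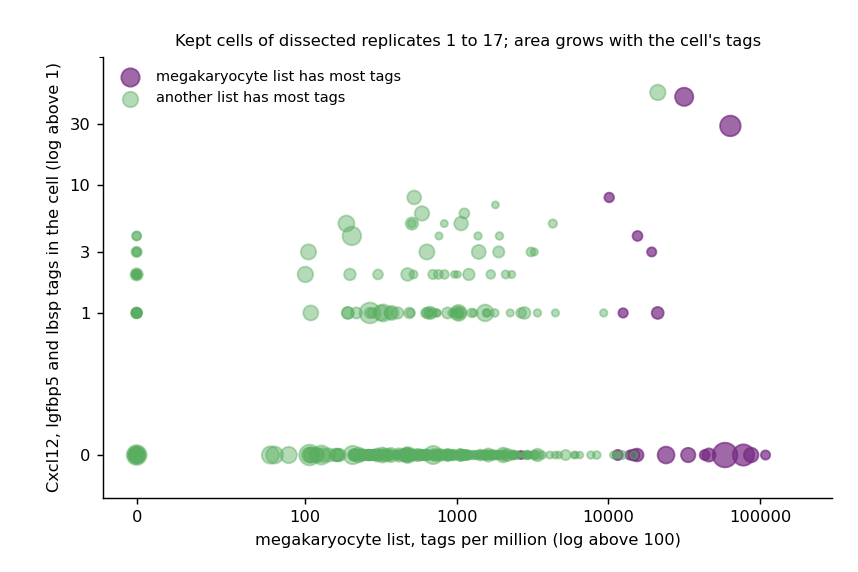
Summed Cxcl12, Igfbp5 and Ibsp tags per kept cell against the level of the megakaryocyte list in CPM, for dissected replicates 1 to 17 (both axes logarithmic with a linear part at 0; point area grows with the tags of the cell). The 3 cells at the top held 210, 446 and 1168 megakaryocyte tags, and 5 of the 20 cells led by that list held Cxcl12.

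Over all 20 cells of replicates 1 to 17 led by the megakaryocyte list, 5 held Cxcl12 and 7 held Igfbp5. The levels were 299 and 216 CPM, against 65.8 and 40.8 CPM in cells led by the erythroblast list and 87.5 and 37.2 CPM in those led by the neutrophil line list. Median tags per cell in the 3 sets were 4931, 1672 and 2389. The replicate 11 and 14 cells described above held 19 and 20 of the 47 Cxcl12 tags of the megakaryocyte-led cells, and 23 and 4 of their 34 Igfbp5 tags.

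**Figure D5:**
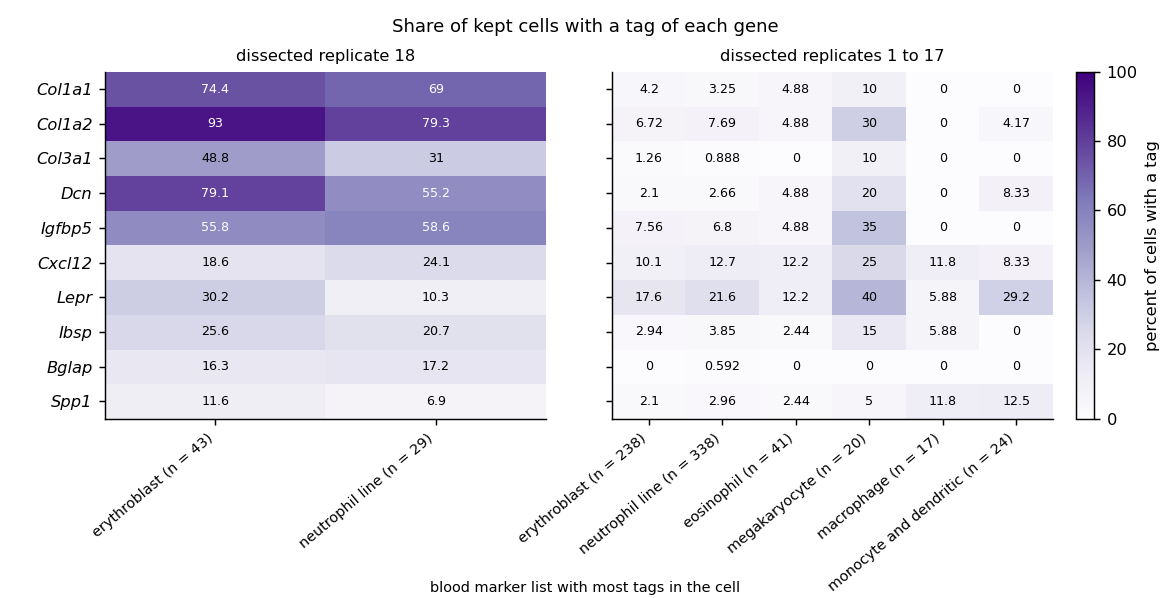
Percent of kept cells with at least 1 tag of each member, in dissected replicate 18 (left) and in replicates 1 to 17 (right), by the blood marker list with most tags in the cell; n gives the cells of each column and depth was not equalised. Col1a2 was found in 93% and 79.3% of cells in the columns of replicate 18. Among the columns drawn for replicates 1 to 17, the 20 megakaryocyte-led cells had the highest median tags. They also had the highest share of every member except Bglap and Spp1.

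Lepr, the leptin receptor (chr4:101717404-101815352), was found in both groups. It had 214 tags in 122 of 707 dissected cells (17.3%, interval 14.5 to 20.2%) and 49 tags in 39 of 245 sorted HSC (15.9%, interval 11.6 to 21.1%). The dissected libraries spanned 0 to 210 CPM with a median of 80.9 CPM, and the 4 sorted HSC libraries had 0, 110, 121 and 50.3 CPM. The groups overlapped. The fitted log2 fold was 0.27 ± 0.45 (SE; adjusted p = 0.702, edgeR), and it was -0.12 with library totals in place of TMM scaling and -0.021 without sorted HSC replicate 5. After thinning to 1000 tags, 7.20% of dissected cells and 8.57% of sorted HSC held it.

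Lepr was found in cells of several kinds. In the files of replicates 1 to 17 it stood at 118 CPM in erythroblast-led cells and 121 CPM in neutrophil-led cells, and its 3 highest cells held 9.13% of its 252 tags. The highest, with 10 tags in replicate 15, led with the neutrophil gene S100a9. Of the 137 cells with Lepr, 26 held Cxcl12. Its neighbour Leprot, a separate upstream gene in the annotation (chr4:101647718-101659364), had nearly equal numbers, with 215 tags in 127 dissected cells and 43 tags in 39 sorted HSC. Both were found together in 33 dissected cells and in 2 sorted HSC. The labels do not name the gene models behind the deposited counts, and whether reads of 1 gene were counted for the other was not tested.

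The receptors of these factors moved in both directions between the groups. Of 11 niche factor receptors tested, 2 were higher and 3 lower in dissected cells, and 6 did not pass. Over all genes tested, 12.1% were called higher and 12.8% lower, so these counts are descriptions. Cxcr4, the Cxcl12 receptor, rose by a log2 fold of 1.47 ± 0.50 (SE; adjusted p = 0.0218, edgeR), and Cd44, which binds osteopontin and hyaluronan, by 1.53 ± 0.47 (adjusted p = 0.0116). Kit, the stem cell factor receptor and a marker used in the sort, fell by 2.63 ± 0.43 (adjusted p = 1.22e-05). Tek, the angiopoietin receptor, fell by 3.53 ± 0.67 (adjusted p = 2.28e-05). Integrin Itgb3 had 4.61 ± 1.88 (adjusted p = 0.0801), Itga2 2.82 ± 1.19 (0.0705) and the collagen receptor Ddr2 2.96 ± 1.32 (0.0936). Itga4, Itgb1 and Itgav had log2 folds of 0.50, 0.63 and 0.51 with adjusted p of 0.430, 0.339 and 0.586. The median log2 fold was 0.63 over these receptors and -0.03 over all genes tested.

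Other stromal genes in the table were few. Of 9 genes of mesenchymal stroma tested, 3 rose and 1 fell: Vcam1, an adhesion molecule of stroma and macrophages, with a log2 fold of 8.16 ± 1.28 (adjusted p = 3.79e-05, edgeR), Lpl, lipoprotein lipase, with 2.62 ± 0.60 (adjusted p = 4.85e-04), Kitl with 3.22 ± 1.17 (adjusted p = 0.0341), and the stem cell niche ligand Angpt1 with -2.15 ± 0.72 (adjusted p = 0.0341). Apoe, with most counts on the list, had -0.29 ± 0.86. The macrophage list, which also holds Vcam1, moved with these genes, with 10 of 15 tested higher, none lower and a median log2 fold of 4.74. The macrophage-led cell of replicate 9 described above held 28 Vcam1 and 23 Lpl tags, and the part of macrophage RNA in these rises was not tested. Of the 2 bone-forming genes tested, Runx2 had -0.90 ± 0.45 (adjusted p = 0.136) and Sparc 2.34 ± 0.96 (adjusted p = 0.0636). Of 9 fibrillar matrix genes, Col5a1 rose, with 5.55 ± 1.09 (adjusted p = 6.74e-05), and Bgn, the proteoglycan biglycan, fell, with -2.63 ± 0.70 (adjusted p = 0.00267). None of 6 insulin-like growth factor genes passed; Igfbp4, with most counts, had 0.41 ± 0.41 (adjusted p = 0.491), and 1 of the 6, Igf2r, had an unadjusted p under 0.05. The median log2 folds of the 4 lists were 0.45, 0.72, 0.31 and 0.90. The list counts stand beside 12.1% called higher and 12.8% called lower over all genes tested.

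Most cells held none of the 10 genes or 1 of them. Over all 18 dissected libraries, 325 of 790 kept cells (41.1%, interval 37.7 to 44.7%) held at least 1 member and 97 (12.3%) held at least 3. In replicate 18 these were 80 (96.4%) and 65 (78.3%) of 83 cells, and in the table's replicates 1 to 17 they were 245 (34.7%) and 32 (4.53%) of 707. Of the 97 cells with 3 or more members, 65 came from replicate 18. In sorted HSC, 46 of 245 cells (18.8%) held at least 1 and none at least 3; apart from Lepr, 8 cells (3.27%) held a member, in each case Col1a2. Requiring 2 tags per gene, 20.0% of the 790 dissected cells held a member and 4.56% held 3.

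Cells that held pairs of members were counted. In replicate 18, all 36 cells with Col3a1 held Col1a2 and 57 of the 61 cells with Col1a1 did, where Col1a2 was present in 74 of all 83 cells. In the files of replicates 1 to 17, 14 of the 25 cells with Col1a1 held Col1a2, which was present in 51 of 696 cells. In the same files, 27 of the 52 cells with Igfbp5 held Cxcl12, present in 85 of 696 cells, and 13 of the 26 cells with Ibsp did. In these files, cells holding a member other than Col1a1 had more tags at the median than cells without it. For Cxcl12 the median was 2870 tags, against 2069 tags in cells without it. For Col1a1 the order was reversed, with fewer tags at the median in the cells that held it.

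Cells from the same clump were compared. The column names of the table give a clump number for each cell, and 480 kept dissected cells had at least 1 kept partner. Each holding cell was paired with each kept partner of its clump, so a cell could be counted more than 1 time. Of 62 such pairs for Cxcl12, the partner also held it in 10 (16.1%), all from 3 clumps. Of all clumped cells, counted 1 time each, 9.58% held Cxcl12. For Col1a2 it was 8 of 45 pairs (17.8%, from 4 clumps), against 7.08% of clumped cells. For Igfbp5 it was 8 of 45 (17.8%, from 4 clumps), against 6.88%. For Col1a1 it was 2 of 24 (8.33%, from 1 clump), against 3.54%, and for Lepr 22 of 108 (20.4%, from 11 clumps), against 17.3%. No partner held the gene for Dcn (0 of 24, against 2.92%), Spp1 (0 of 19, against 2.92%), Col3a1 (0 of 11, against 1.04%), Ibsp (0 of 8, against 1.04%) or Bglap (0 of 4, against 0.417%). These shares are descriptions, since partners also share a library, and 31 of the 64 Col1a2 tags lay in replicate 11.

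Across single cells the genes most like the collagens were muscle genes. Over the 779 kept cells of the 18 per-library files, the genes most like Col1a2 by Pearson correlation of log2(tags per 10000 tags + 1) were Ttn (r = 0.77), Ckm (0.76), Acta1 (0.75), Tnnt3 (0.74) and Myh4 (0.73), all of skeletal muscle. Col1a1 was most like Col1a2 (0.73), then Ttn (0.72), Myh4 (0.71), Tnnc2 (0.71) and Ckm (0.71), and Dcn was most like Tnnc2, Ttn, Myh1, Tpm2 and Ckm (0.71 to 0.72). Col3a1 had Col1a2 first (0.58). The points share libraries and depth. Without replicate 18, Col1a1 and Col1a2 had r = 0.38, Col1a2 and Ttn 0.41, and Dcn and Myh1 0.47. Within replicate 18 alone, Col1a1 had Neb (0.55), Malat1 (0.53) and Dcn (0.52) first, and Col1a2 had Malat1 (0.55) and Sparc (0.51).

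Muscle transcripts were also high in collagen-holding cells of the other libraries. In the files of replicates 1 to 17, the skeletal muscle list stood at 9549 CPM over the 51 cells with Col1a2, against 200 CPM over the 645 cells without it. For Dcn it was 12814 CPM in 22 cells, against 701 CPM in 674. For Cxcl12 it was 525 CPM in 85 cells, against 1414 CPM in 611. Of the 51 cells with Col1a2, 25 held a muscle tag. The part of muscle RNA in the collagen counts of these cells was not tested.

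The remaining members were alike to few genes. Cxcl12 had Igfbp5 (r = 0.33), Igfbp7 (0.30), Gas6 (0.25) and Ibsp (0.23) among its first 5, and kept Igfbp5, Igfbp7 and Gas6 as its first 3 without replicate 18 (0.36, 0.33 and 0.28). Igfbp5 had Col1a2 first over all 18 libraries (0.50) and Cxcl12 first without replicate 18 (0.36). Ibsp was nearest to Igfbp5 (0.36), Mgp (0.33) and Col1a2 (0.31). Spp1 was nearest to Atp6v0d2 (0.34), Gpnmb (0.32), Cd4 (0.32), Igf1 (0.27) and Rasa4 (0.25). Bglap was nearest to Ankrd23 (0.53), Cfd (0.46) and Sparc (0.45), from 24 tags in 16 cells. With Lepr, no gene exceeded r = 0.18 over all 18 libraries; within the 83 cells of replicate 18 the first was Fam103a1 (0.37). In counts this sparse, such values describe a few cells.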

How the data were processed

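The deposited table of all cells and the per-library files hold estimated counts of transcripts per gene and cell. The submitters' processing notes name BWA 0.6.2-r126 and mm10; no source used here gives the counter or its gene models. Each deposited value v fits v = 256 ln(256/(256 - k)) for a whole number of tags k: 100% of file values and 99.99993% of table values lay within 0.01 of a whole k, and these tags were used for levels and cell counts. The 63 wells with no table column are those whose profile reached a correlation of 0.9 with none; a cell had a median of 1.15 times as many tags in the table as in its file. Spike-in rows were removed. Library sums of the estimated counts over cells with at least 1000 transcripts were rounded and tested for dissected over sorted HSC with edgeR 4.0.16 (R 4.3.3; TMM, robust quasi-likelihood fit, at least 10 counts over all libraries, Benjamini-Hochberg adjustment over all genes, threshold 0.05); DESeq2 1.42.0 was an alternative. On simulated counts with 183 tested genes changed 4-fold among 10648, 22.4% were recovered with 1 false call. CPM are tags per 1000000 tags in kept cells; intervals are exact 95% binomial. Likeness used genes with at least 20 tags in at least 5 cells. The rule named the 10 members, the 5 genes most like each, the 3 genes with most tags of each list, the Bglap copies and all niche receptors; other list genes, Leprot and single cells were named after their values were seen. A receptor and a gene like Cxcl12 that the rule names are not reported here. The members and lists were chosen with earlier results of these data known. Gene positions are from GENCODE vM21 (GRCm38). Replicate 2 of the sorted HSC is not used here. Replicate numbers follow accession order and pair no samples. No doublets were removed. The alternatives were DESeq2, other scalings, filters and transcript minimums, thinning, and leaving out each library.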

Additional observations from a re-analysis of the deposited data

Results flagged for a closer look

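Leprot had a level of 323 CPM in sorted HSC replicate 1, against 97.3, 68.9 and 61.5 CPM in replicates 3, 4 and 5, and the gap to the nearest library was 0.863 of the range over the 4. That library held 2 kept cells, and the value rests on 1 tag. Chance places about 1 in 20 groups of this size past the limit used.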

How the results depend on the processing

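The count of genes called between dissected cells and sorted HSC was 2722 of 10915 tested, and the count of members called higher was 6 of 9. With DESeq2 these were 1632 of 9856 genes and 2 of 8 members with an adjusted p. With the filterByExpr filter they were 1106 of 3638 genes and 1 of the 2 members left to be tested. With cells of at least 2000 transcripts they were 1804 of 10380 genes and 3 of 8 members. The number of genes tested thus differs between settings. Leaving out 1 library gave 1484 to 2825 genes and 2 to 7 members, lowest without sorted HSC replicate 3 (1484 genes, 2 members) and replicate 5 (1785 genes, 2 members); the cause was not tested. Library totals in place of TMM gave 1000 genes higher and 2641 lower, against 1320 higher and 1402 lower, and gave a median log2 fold over all genes of -0.45, against -0.03 with TMM. The log2 fold of Lepr was 0.27; it was -0.12 with library totals and spanned -0.021 to 0.58 when 1 library was left out, lowest without sorted HSC replicate 5. That of Col1a2 was 0.79, and -0.19 with a minimum of 2000 transcripts per cell; the cause was not tested. Cxcl12 and Igfbp5 were called in each fit run that tested them. With a 4-fold line in place of 2-fold, 147 genes and 4 members stood above the highest other library in dissected replicate 18. The share of dissected cells with at least 1 member was 41.1%. It was 35.2 to 48.3% over the transcript minimums of 500 and 2000, 25.1% after thinning and 20.0% with at least 2 tags per gene. Without replicate 18, a choice made after seeing the data, it was 34.7%. The share with at least 3 members was 12.3%, and 4.53 to 14.6% under the alternatives run. The SD between libraries, replicate 18 included, was 21.7 and 17.9 points for these shares. The second SD exceeds its own share, so no fall could pass it. No paired analysis was possible because the groups share no replicate numbers in the labels.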
